A study of Rattus norvegicus with 6 samples.

Results

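Nfe2l2, which encodes the transcription factor NRF2, was described together with the genes NRF2 is known to control and the main antioxidant enzymes of the rat hippocampus. The genes were chosen by name, with earlier results of these data known. Each was represented by the probe set that names it alone and has the highest mean level over the 6 arrays. Of the 43 genes listed, 42 were measured, out of 22093 genes with such a probe set. Pgd, a dehydrogenase of the pentose phosphate pathway, was not matched by its symbol and is not analysed here. Of the 42 genes, 40 had 1 such probe set, Abcc1 had 2 and Cbr1 had 3.

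Male Sprague-Dawley rats aged 18 months breathed sevoflurane at 2.5%, carried in pure (100%) oxygen, over 4 h, and the control rats breathed the oxygen alone for the same time. Both groups were therefore exposed to 100% oxygen, the animals woke in 100% oxygen after sevoflurane was stopped, and the hippocampus was taken 3 h after anesthesia. There were 3 rats in each group and 6 arrays in all. The comparison asks which transcripts differ after anesthesia in the aged hippocampus. Nfe2l2 is a gene that the study itself named from these samples, so its value here is not independent evidence. The study also reported a higher Nfe2l2 level after anesthesia by qPCR of the hippocampus. Those measurements are not part of the data analysed here.

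Every value is a normalized log2 expression value, on which a difference of 1 is a doubling, and differences are sevoflurane minus control. Groups were compared with limma, two-sided, and a gene is said to pass when its unadjusted p is under 0.05. Of the 68842 probe sets tested, 1.61% passed (1.32% of the 22093 genes with 1 probe set each), and 0 had a Benjamini-Hochberg adjusted p under 0.05. The 12 measured markers of hippocampal neurons had a mean level of 9.93 to 10.18 on the 6 arrays, against a background median of 3.46 to 3.96. Sevoflurane replicate 1 stood apart, with a mean correlation of 0.986 with the other arrays against 0.991 to 0.993 for the others, and a number of values are also given without it. The tissue was whole hippocampus, so fewer cells of a type and less RNA per cell cannot be told apart.

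NRF2 is held at a low level in unstressed cells by KEAP1, a sensor protein that carries it to a ubiquitin ligase for degradation. When cysteines of KEAP1 are modified by electrophiles or peroxides, NRF2 escapes, enters the nucleus, pairs with a small MAF protein and binds the antioxidant response element. Its targets make and recycle glutathione, keep thioredoxin reduced, conjugate and detoxify electrophiles, degrade heme, store iron and supply NADPH. In the brain the response is strongest in astrocytes and is weak in mature neurons. Because NRF2 is controlled mainly through its stability, the level of its transcript is a limited measure of its activity, and the transcripts of its targets are commonly read beside it.

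The genes were listed by name and not by sequence, and the antioxidant response element is shown here because NRF2 binds it. Its core, TGACNNNGC, was searched on both strands of RefSeq windows of 300 bases (250 before to 50 after the start of the gene, build GRCr8), and it was found in windows of 11 of the 36 measured genes with a window (30.6%), against 13.1% of all 27457 genes with one. A match is a description of the letters and not of a bound site. Sequence outside these windows was not searched, and Hmox1, Gsr, Prdx6, Fth1, Ftl1 and Sod3 had no window. A gene without a match here may therefore carry the core elsewhere. The 6 windows printed below are those of genes with established NRF2 control and of Nfe2l2 itself, read 5′ to 3′ along the strand that carries the core, with the core in capitals.
Gstp1: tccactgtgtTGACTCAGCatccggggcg
Gclm: tggaagacaaTGACTAAGCagaaaccgca
Prdx1: cggcggggtaTGACTCAGCgctttccctg
Txnrd1: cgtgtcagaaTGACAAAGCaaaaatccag
Me1: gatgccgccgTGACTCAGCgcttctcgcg
Nfe2l2: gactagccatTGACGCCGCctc

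The Gstp1 window lies at chr1:210769748-210769776 on the minus strand, with the core centred 57 bases before the start. The Gclm window lies at chr2:213031953-213031981 on the minus strand, 168 bases before the start. The Prdx1 window lies at chr5:135383761-135383789 on the minus strand, 131 bases before it. Gstp1, Prdx1 and Me1 share the same 9 letters of the core. The Txnrd1 window lies at chr7:22755964-22755992 on the plus strand, 74 bases before the start, and the Me1 window at chr8:96540393-96540421 on the minus strand, 163 bases before it. In Nfe2l2 the core lies at chr3:81028950-81028971 on the minus strand and 43 bases after the start, within the transcribed part. The other genes with a core were Sod2, Prdx5, Gsta3, Hmox2 and Prdx4. The differences of the 11 genes between the groups ran from -0.15 for Gstp1 to 0.22 for Nfe2l2.

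Transcripts of the NRF2 pathway differed little between the groups 3 h after sevoflurane. None of the 42 genes passed with limma, 0 had an adjusted p under 0.05, and the smallest unadjusted p was 0.0539, for Mgst1. The differences ran from -0.15 to 0.37, with 32 of 42 genes higher and 10 lower (76.2% higher, against 62.5% of all 22093 genes). Their median was 0.050, against 0.024 for all genes. For 41 of the 42 genes the 95% interval of the difference lay inside a 1.5-fold change either way, and Mgst1 was the exception, with an interval that reached 1.68-fold higher. The groups did not overlap for 6 of 42 genes (14.3%), and the same was true of 5.47% of all probe sets and 6.27% of all genes. Of these 6, Nfe2l2, Srxn1, Tkt, Sod1 and Sod3 were higher in all sevoflurane rats than in any control rat, and Gpx3 was lower. Among all 22093 genes, 1089 were separated in the higher direction and 296 in the lower (3.12% and 2.35% of all probe sets). The methods' one-way ANOVA passed Nfe2l2, Sod1 and Srxn1 (3 of 42, against 693 of 22093 genes and 2.52% of all probe sets), and none of them after adjustment. An intensity trend with a robust prior passed 2 of 42 (1.63% of all probe sets), array weights 6 (13.9%) and quantile normalization 1 (3.04%).

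**Figure D1:**
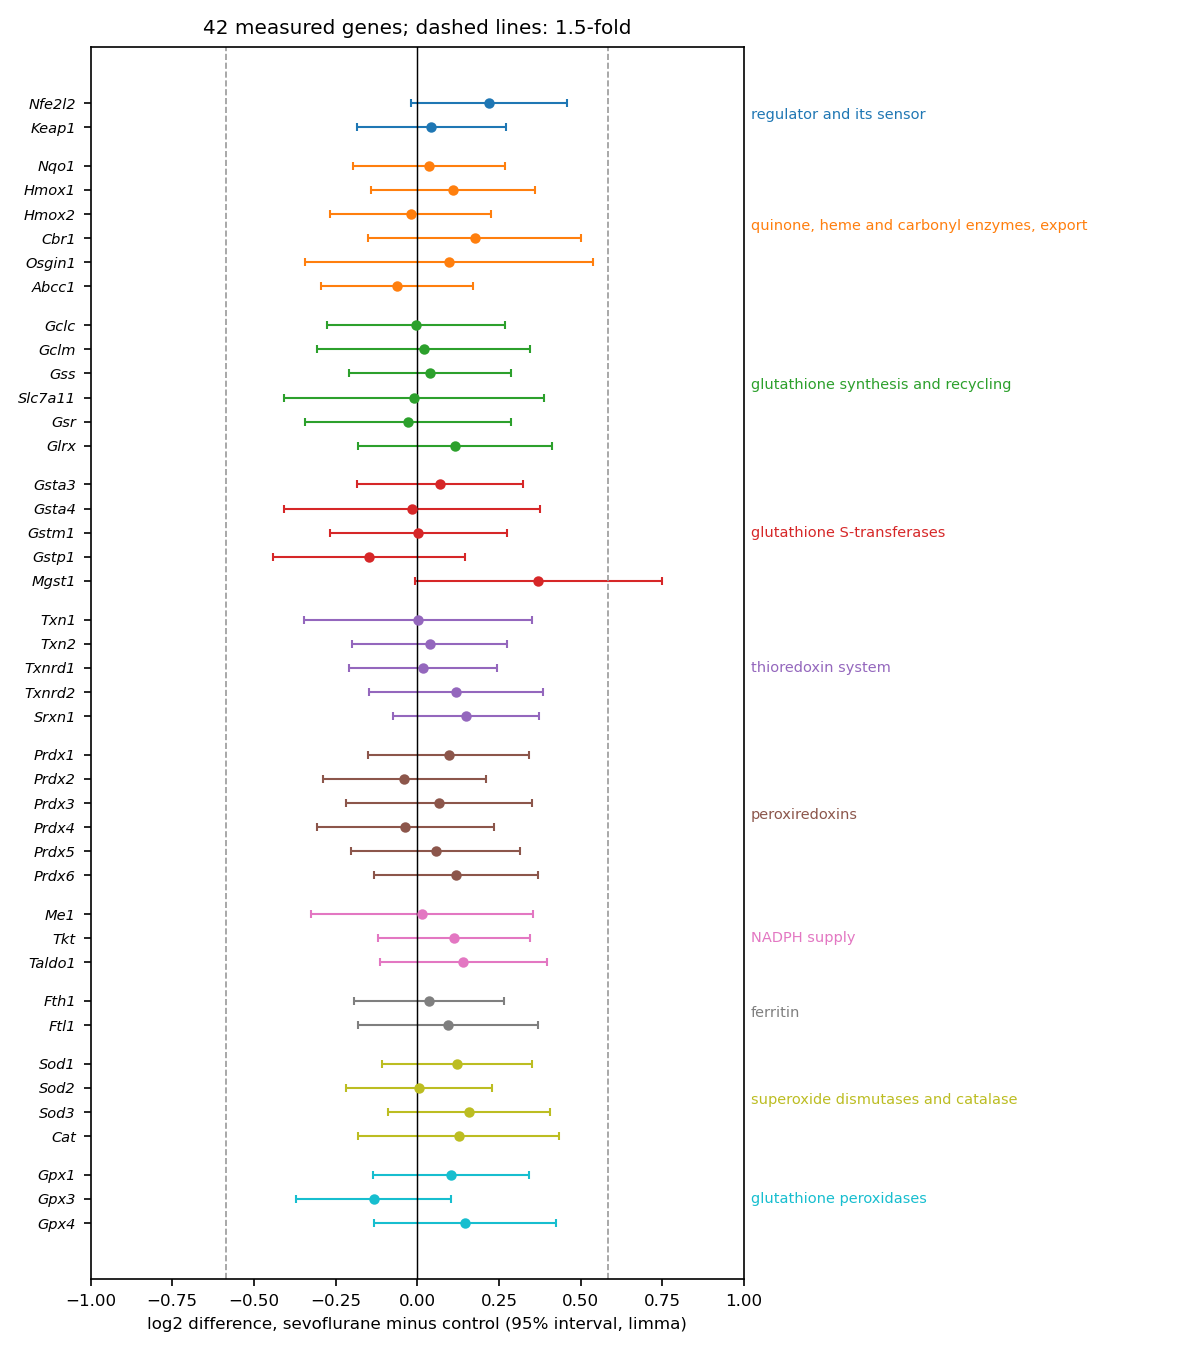
Log2 difference between sevoflurane and control for the 42 measured genes (points, with 95% intervals from limma, 3 arrays per group), coloured by role. Every interval includes 0, and only that of Mgst1 crosses the dashed line that marks a 1.5-fold change.

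The transcript of NRF2 itself was higher on every sevoflurane array than on any control array. Nfe2l2 was measured at 6.70, 6.71 and 6.78 on the control arrays and at 7.01, 6.86 and 6.98 on the sevoflurane arrays. The lowest sevoflurane value thus lay above the highest control value, and the control values were closer together (SD 0.04) than the sevoflurane values (SD 0.08). The difference was 0.22 (SE 0.10, 3 arrays per group), a 1.16-fold higher level with a 95% interval of 0.987-fold to 1.37-fold. It did not pass with limma (unadjusted p = 0.066), and an exact permutation test gave unadjusted p = 0.1, the smallest it can give with 3 arrays against 3. The methods' one-way ANOVA gave an unadjusted p of 0.0148. With 1 array left out at a time the difference stayed between 0.19 and 0.27.

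Keap1, the sensor that targets NRF2 for degradation, was at 7.16, 7.23 and 7.26 in the controls and at 7.27, 7.27 and 7.24 after sevoflurane. These values overlap, and the difference was 0.043 (SE 0.10, limma, unadjusted p = 0.673). A 95% interval of 0.880-fold to 1.21-fold bounds the change of the Keap1 transcript in these samples.

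**Figure D2:**
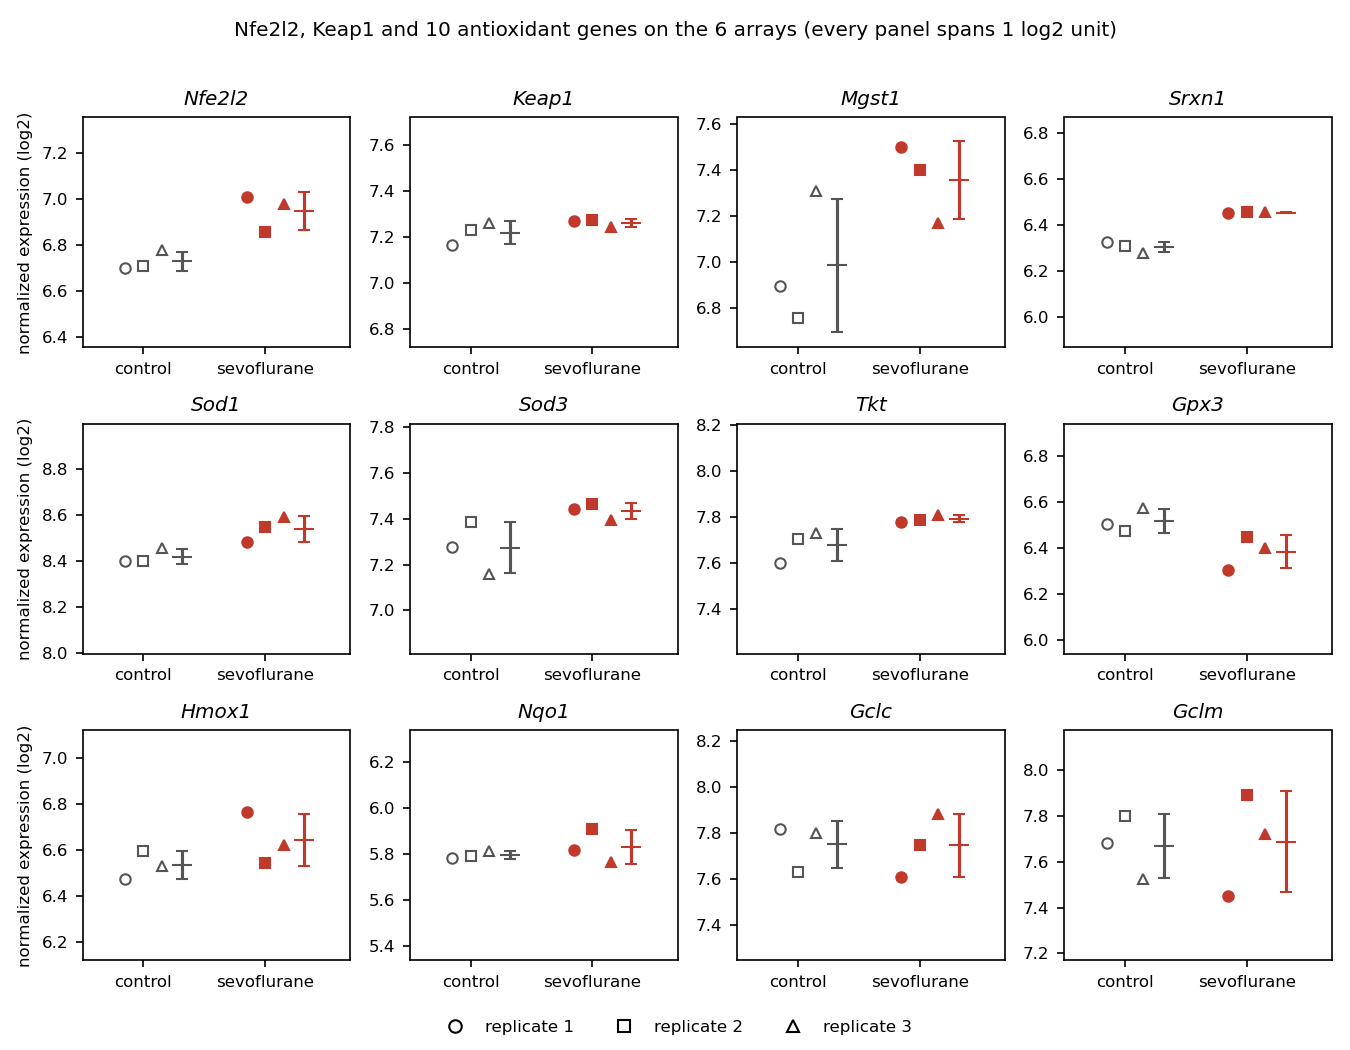
Normalized log2 expression of 12 genes on the 3 control arrays (open symbols) and 3 sevoflurane arrays (filled symbols), with the mean and SD beside each group and the same span of 1 log2 unit in each panel. The groups are separated for Nfe2l2, Srxn1, Sod1, Sod3, Tkt and Gpx3, whose differences lie between -0.13 and 0.22.

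The enzymes most often read as reporters of NRF2 activity differed little. Nqo1, a quinone reductase and a standard NRF2 target, was at 5.78, 5.79 and 5.81 in the controls and at 5.82, 5.91 and 5.77 after sevoflurane, a difference of 0.036 (95% interval 0.873-fold to 1.20-fold). Hmox1, the inducible heme oxygenase, was at 6.47, 6.60 and 6.53 against 6.77, 6.54 and 6.62. Sevoflurane replicates 1 and 3 lay above every control and replicate 2 within the control range, and the difference was 0.11 (SE 0.11, limma, unadjusted p = 0.348), or 0.048 without sevoflurane replicate 1. Hmox2, the constitutive heme oxygenase, differed by -0.020.

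Within the group of quinone, heme and carbonyl enzymes and export, Cbr1, a carbonyl reductase, had the largest difference. It was at 8.33, 8.37 and 8.68 in the controls and at 8.45, 8.66 and 8.80 after sevoflurane, so that control replicate 3 lay within the sevoflurane range. The difference was 0.18 (SE 0.14, limma, unadjusted p = 0.25), and the other 2 probe sets of Cbr1 gave 0.17 and 0.10. Osgin1, an oxidative stress-induced growth inhibitor, was at 6.42 on sevoflurane replicate 1 and at 5.90 and 5.64 on the other sevoflurane arrays, around control values of 5.75, 5.94 and 5.98. Its difference of 0.098 turned to -0.12 without sevoflurane replicate 1. Abcc1, a pump that exports glutathione conjugates, was at 7.61, 7.62 and 7.72 in the controls and at 7.54, 7.60 and 7.63 after sevoflurane. All its sevoflurane values lay below the control mean, although the groups overlapped, and the difference was -0.061 (limma, unadjusted p = 0.562).

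In glutathione synthesis and recycling 3 of 6 genes were above and 3 below their control means (median 0.0078), and none passed. Without sevoflurane replicate 1 all 6 were above (median 0.088), among them Gclm at 0.14, Gsr at 0.087 and Glrx at 0.22. Gclc and Gclm, the catalytic and modifier subunits of glutamate-cysteine ligase, the rate-limiting step of glutathione synthesis, differed by -0.0036 and 0.019, with intervals of 0.826-fold to 1.20-fold and 0.809-fold to 1.27-fold. Slc7a11, the transporter that brings in cystine for glutathione, differed by -0.0098, and Gsr, which returns oxidised glutathione to its reduced form, by -0.029. Gss, glutathione synthetase, was at 6.52, 6.59 and 6.57 in the controls and at 6.67, 6.66 and 6.47 after sevoflurane, where replicate 3 was the lowest of all 6 values. Glrx, a glutaredoxin that removes glutathione from protein cysteines, was at 8.38, 8.33 and 8.29 against 8.23, 8.45 and 8.66. Sevoflurane replicate 1 was the lowest of its 6 values and sevoflurane replicate 3 the highest, and the difference was 0.12 (SE 0.13, limma, unadjusted p = 0.399).

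The glutathione S-transferases, which attach glutathione to electrophiles, held both the largest and the lowest difference of the 42 genes. Mgst1, a membrane-bound transferase with peroxidase activity, was at 6.90, 6.76 and 7.31 in the controls and at 7.50, 7.40 and 7.17 after sevoflurane. Control replicate 3 lay above sevoflurane replicate 3, so the groups overlapped. The difference was 0.37 (SE 0.17, 1.29-fold), with an unadjusted p of 0.0539 from limma and 0.128 from the methods' one-way ANOVA. It was 0.53 (limma, unadjusted p = 0.0101) without control replicate 3 and 0.46 (limma, unadjusted p = 0.0321) without sevoflurane replicate 3. Without these arrays in turn, 0.911% and 3.37% of all probe sets passed. Leaving out any other array lowered the difference, to between 0.25 and 0.35, and Mgst1 did not pass (limma, unadjusted p from 0.12 to 0.192). Gstp1, the pi-class transferase, was at 8.406, 8.219 and 8.397 in the controls and at 7.999, 8.360 and 8.218 after sevoflurane. Its lowest value was on sevoflurane replicate 1, and the difference was -0.15 (SE 0.13, limma, unadjusted p = 0.279), or -0.052 without that array. Gsta3, Gsta4 and Gstm1 differed by 0.070, -0.015 and 0.0033, and by 0.035, 0.10 and 0.084 without that array. Gsta3 has near-identical relatives, and a probe set that names Gsta1 and Gsta3 together, not counted among the members, differed by 0.31 (limma, unadjusted p = 0.0605), with values of 8.58, 8.43 and 8.73 in the controls and 8.71, 8.83 and 9.14 after sevoflurane.

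In the thioredoxin system all 5 differences were above 0 and the largest was that of Srxn1. Srxn1 encodes sulfiredoxin, a NRF2 target that repairs over-oxidised peroxiredoxins, and it was at 6.33, 6.31 and 6.28 in the controls and at 6.45, 6.46 and 6.46 after sevoflurane. Both groups were tight and separate, and the difference was 0.15 (SE 0.10, 1.11-fold). Limma, which draws each gene's spread toward that of all probe sets, gave unadjusted p = 0.163, whereas the methods' one-way ANOVA, which uses the spread of the gene alone, gave an unadjusted p of 0.000379, and the exact permutation p was 0.1. Txnrd2, the mitochondrial thioredoxin reductase, was at 6.64, 6.72 and 6.63 against 6.94, 6.77 and 6.63, a difference of 0.12 (limma, unadjusted p = 0.34) in which sevoflurane replicate 1 was the highest value, and of 0.040 without it. Txn1 and Txn2, the cytosolic and mitochondrial thioredoxins, differed by 0.0030 (0.14 without sevoflurane replicate 1) and 0.038, and Txnrd1, the cytosolic reductase, by 0.018.

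The peroxiredoxins, which reduce peroxides with electrons from thioredoxin or, for Prdx6, glutathione, differed by -0.039 to 0.12, with 4 of 6 higher. Prdx6 was at 7.88, 7.83 and 7.72 in the controls and at 7.87, 8.04 and 7.88 after sevoflurane (difference 0.12, limma, unadjusted p = 0.31). Prdx1, a cytosolic enzyme and NRF2 target, was at 8.47, 8.45 and 8.52 against 8.45, 8.59 and 8.67 (difference 0.096, limma, unadjusted p = 0.396). In both genes sevoflurane values overlapped those of the controls. Prdx3, the mitochondrial member, differed by 0.067, Prdx5 by 0.056, Prdx4, the member of the endoplasmic reticulum, by -0.036 and Prdx2 by -0.039.

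The enzymes that supply NADPH, the reducing power of the glutathione and thioredoxin systems, were all at or above the control mean. Tkt, the transketolase of the pentose phosphate pathway, was at 7.60, 7.70 and 7.73 in the controls and at 7.78, 7.79 and 7.81 after sevoflurane. The groups did not overlap, and the gap between the highest control value and the lowest sevoflurane value was smaller than the spread of the controls (SD 0.07). The difference was 0.11 (SE 0.10, limma, unadjusted p = 0.297). Taldo1, the transaldolase of the same pathway, was at 8.65, 8.53 and 8.67 against 8.63, 8.77 and 8.87, with sevoflurane replicate 1 inside the control range (difference 0.14, limma, unadjusted p = 0.242). Me1, malic enzyme, differed by 0.014, or 0.14 without sevoflurane replicate 1.

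Ferritin, the iron store whose chains are NRF2 targets, differed little. Fth1, the heavy chain, was at 8.58, 8.68 and 8.66 in the controls and at 8.66, 8.71 and 8.66 after sevoflurane (difference 0.036, limma, unadjusted p = 0.728). Ftl1, the light chain, was at 9.51, 9.57 and 9.37 against 9.41, 9.65 and 9.67 (difference 0.094, limma, unadjusted p = 0.457). The groups overlapped for both chains.

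Of the enzymes that act on superoxide and hydrogen peroxide, Sod1 and Sod3 were separated between the groups, with higher values after sevoflurane. Sod1, the cytosolic copper-zinc superoxide dismutase, was at 8.40, 8.40 and 8.46 in the controls and at 8.48, 8.55 and 8.59 after sevoflurane, a difference of 0.12 (SE 0.10, 1.09-fold, limma, unadjusted p = 0.261), for which the methods' one-way ANOVA gave an unadjusted p of 0.0317 and the exact permutation test a p of 0.1. Sod3, the extracellular form, was at 7.28, 7.38 and 7.16 against 7.44, 7.46 and 7.39, a difference of 0.16 (SE 0.11, 1.12-fold, limma, unadjusted p = 0.178). For Sod3 the controls spread more widely (SD 0.11) than the sevoflurane arrays (SD 0.03), and control replicate 2 almost reached sevoflurane replicate 3. Sod2, the mitochondrial manganese form, was nearly constant, with values from 9.24 to 9.30 on all 6 arrays and a difference of 0.0054. Cat, catalase, differed by 0.13 (limma, unadjusted p = 0.373), and its groups overlapped.

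The glutathione peroxidases differed in both directions. Gpx3, the secreted form, was at 6.51, 6.48 and 6.57 in the controls and at 6.31, 6.45 and 6.40 after sevoflurane, with every sevoflurane value below every control value. The difference was -0.13 (SE 0.10, limma, unadjusted p = 0.232). Gpx4, which reduces lipid peroxides in membranes and restrains ferroptosis, was at 8.12, 8.30 and 8.34 against 8.56, 8.32 and 8.31. Its sevoflurane mean was raised mainly by sevoflurane replicate 1, and its difference was 0.15 (limma, unadjusted p = 0.264) and 0.064 without that array. Gpx1, the abundant cytosolic form, differed by 0.10 (limma, unadjusted p = 0.348).

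The 3 sevoflurane rats did not show the same pattern across the 42 genes. The median SD of a gene was 0.120 among the sevoflurane arrays and 0.068 among the controls, and the SD was larger among the sevoflurane arrays for 31 of 42 genes, as it was for 77.4% of all genes. Sevoflurane replicate 1 gave the lowest of the 6 values for 15 of the 42 genes and the highest for 10, whereas over all genes it gave the lowest for 24.5% and the highest for 44.7%. On this array 21 of the 42 genes were above their control mean, and on each of the other sevoflurane arrays 32 were. A total of 13 genes were above the control mean on all 3 sevoflurane arrays, and 2, Abcc1 and Gpx3, were below it on all 3. The 13 were Nfe2l2, Keap1, Hmox1, Mgst1, Srxn1, Prdx6, Tkt, Taldo1, Fth1, Sod1, Sod3, Gpx1 and Gpx4.

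**Figure D3:**
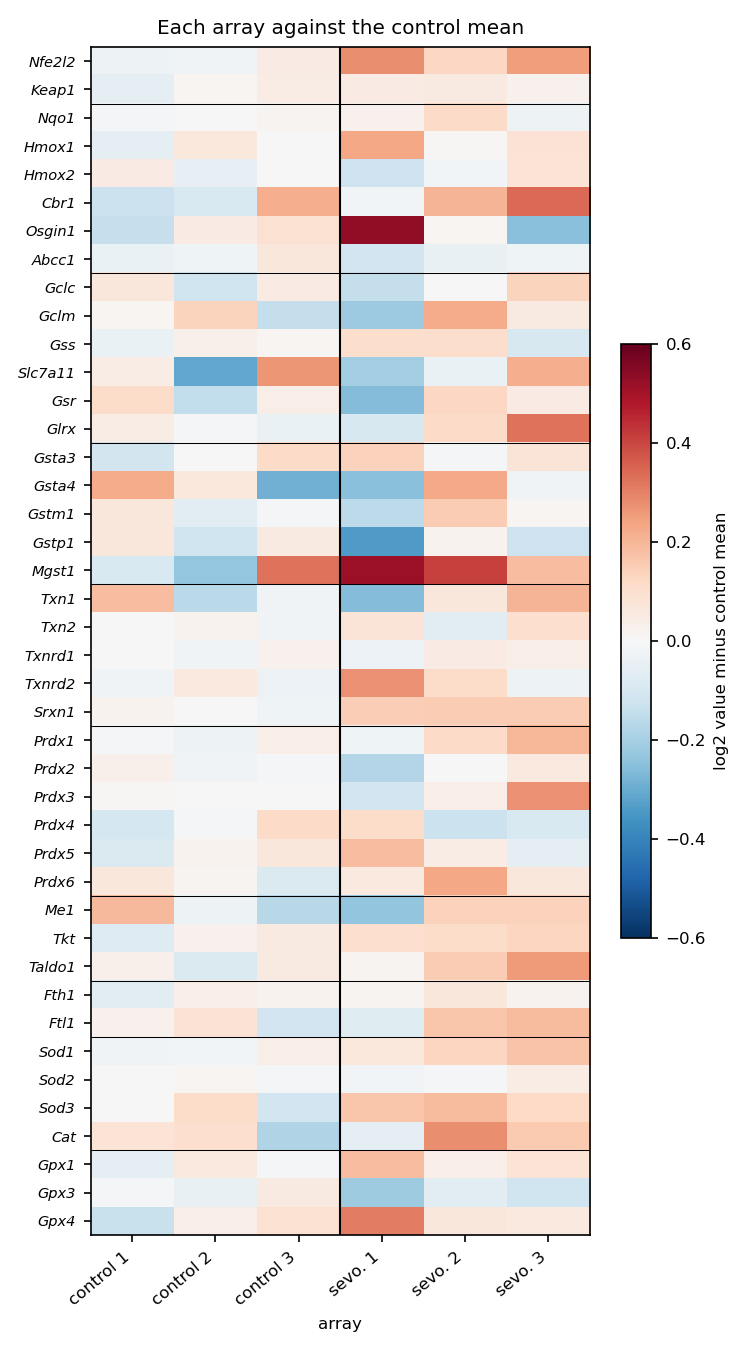
Log2 value minus the control mean for each of the 42 genes (rows, grouped by role) on each of the 6 arrays (columns), red above and blue below the control mean. Sevoflurane replicate 1 holds both the lowest value of 15 genes and the highest of 10, while 32 genes are above the control mean on each of the other sevoflurane arrays.

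The pattern of sevoflurane replicate 1 followed the level of a gene. With all genes split into 3 groups of nearly equal size by their control mean, 28 of the 42 genes fell in the highest group (above 7.16), and 9 of these were above the control mean on this array, against 22 and 26 on sevoflurane replicates 2 and 3. Their median deviations were -0.066, 0.090 and 0.10, beside -0.082, 0.056 and 0.071 for all genes of that group. Of the 13 genes in the middle group (5.67 to 7.16), Nfe2l2 among them, 11, 10 and 5 were above the control mean on the 3 arrays, with median deviations of 0.15, 0.10 and -0.031 beside 0.12, -0.0077 and -0.024 for all genes of that group. Nfe2l2 lay 0.28, 0.13 and 0.25 above its control mean on these arrays. Without sevoflurane replicate 1 the median difference of the 42 genes was 0.075, with 36 of them higher, against -0.0027 for all genes, of which 10884 of 22093 were higher. These 2 sets are not alike in level, because the lowest group (below 5.67) holds 1 of the 42 genes. All genes of that group had median deviations of -0.044 and -0.089 on sevoflurane replicates 2 and 3. The part of this level-dependent spread in the differences of single genes was not tested.

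**Figure D4:**
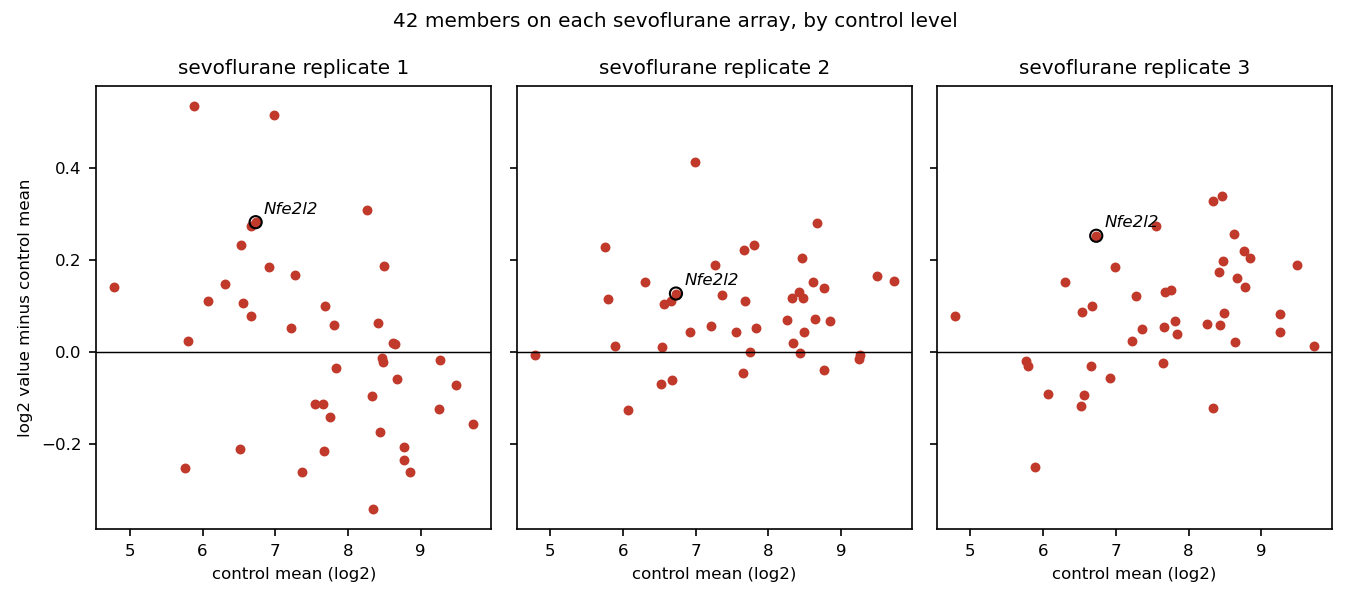
Deviation of each of the 42 genes from its control mean (vertical axis, log2) against that control mean (horizontal axis, log2) on the 3 sevoflurane arrays, with Nfe2l2 ringed. On sevoflurane replicate 1 the genes of high level lie mostly below 0 and those of lower level mostly above, while 26 of the 28 genes of high level lie above 0 on sevoflurane replicate 3.

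Around the core genes, 5 further lists were examined, the partners and regulators of NRF2, further NRF2 targets, further antioxidant and repair enzymes, enzymes that produce superoxide or hydrogen peroxide, and iron handling. Of their 124 measured genes (132 listed), 5 passed with limma, all of them higher after sevoflurane, and 0 after adjustment. Among all genes 1.1% passed higher and 0.222% lower. The median difference of the 124 genes was 0.034, against 0.024 for all genes.

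Cdkn1a had the clearest difference. It encodes p21, a cell cycle inhibitor that also binds NRF2 and protects it from KEAP1, and it is strongly controlled by p53 and by glucocorticoids. Cdkn1a was at 5.83, 6.08 and 5.95 in the controls and at 6.45, 6.79 and 6.70 after sevoflurane, with a wide gap between the groups. The difference was 0.69 (SE 0.13, 1.62-fold, limma, unadjusted p = 0.0006, exact permutation p = 0.1), and it passed in all 14 alternative settings. Trim21, a ubiquitin ligase that acts on the NRF2 regulator p62, was at 5.40, 5.26 and 5.41 against 5.62, 5.54 and 5.65 (difference 0.24, limma, unadjusted p = 0.0471). The other 22 of the 24 partners did not pass, and the list had a median of 0.020. Bach2, a repressor related to Bach1, which competes with NRF2 for its sites, differed by -0.10 (limma, unadjusted p = 0.399), and the differences of Mafg, Bach1, Cul3 and Sqstm1, a small MAF partner, a repressor, the ligase scaffold and p62, were 0.041, 0.034, -0.11 and 0.059.

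Aox1, aldehyde oxidase, a NRF2 target that also makes superoxide and hydrogen peroxide, was the 1 gene of 28 further targets that passed. It was at 6.10, 6.05 and 6.50 in the controls and at 6.55, 6.60 and 6.67 after sevoflurane (difference 0.39, 1.31-fold, limma, unadjusted p = 0.0226), and control replicate 3 lay just below the sevoflurane arrays. The list had a median of 0.043, and Nqo2 and Akr7a3, a quinone reductase and an aldo-keto reductase, came next by p with differences of -0.32 (unadjusted p = 0.17) and 0.15 (unadjusted p = 0.267) from limma. Among 35 further antioxidant and repair enzymes (median 0.042), Mgst2, a relative of Mgst1, passed, at 4.996, 5.483 and 5.312 against 5.818, 5.493 and 5.597 (difference 0.37, limma, unadjusted p = 0.0399). Its lowest sevoflurane value and its highest control value nearly touched. Gsta1, an alpha-class transferase, and Selenow, a selenoprotein, differed by 0.27 (unadjusted p = 0.0697) and -0.20 (unadjusted p = 0.103) from limma.

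Among 23 producers of superoxide and hydrogen peroxide (median 0.050, 16 higher), Aox1 and Rac2 passed. Without sevoflurane replicate 1 the median of this list turned to -0.0059, with 11 of 23 higher. Rac2, a GTPase of the phagocyte NADPH oxidase, was at 6.20, 6.34 and 6.20 in the controls and at 6.53, 6.43 and 6.79 after sevoflurane (difference 0.34, limma, unadjusted p = 0.0268). Ncf1 and Cybb, a cytosolic subunit and the catalytic subunit of that oxidase, did not pass (limma, unadjusted p = 0.0943 for each). Cybb was at 5.36, 5.33 and 5.47 in the controls and at 5.57, 5.59 and 7.22 after sevoflurane. The high value was on sevoflurane replicate 3, and the values of Rac2 and Ncf1 were highest on that array too. In iron handling 0 of 15 genes passed with limma (the methods' one-way ANOVA also gave 0), and Cp, ceruloplasmin, Tfrc, the transferrin receptor, and Heph, hephaestin, differed by 0.45, -0.36 and 0.30.

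Of these 5 genes, only Cdkn1a kept an unadjusted p under 0.05 whichever array was left out. Trim21 lost it without any 1 array except sevoflurane replicate 1 (p up to 0.168, without control replicate 2). Aox1 lost it without control replicates 1 or 2 or sevoflurane replicates 2 or 3 (p up to 0.0907, without control replicate 2), Mgst2 without control replicates 1 or 3 or sevoflurane replicates 1 or 3 (p up to 0.155, without control replicate 1), and Rac2 without control replicates 1 or 3 or sevoflurane replicate 3 (p up to 0.0962, without sevoflurane replicate 3). The count of 5 became 1, 3 and 2 without control replicates 1, 2 and 3, and 12, 7 and 1 without sevoflurane replicates 1, 2 and 3. The share of all probe sets that passed moved too. It was 1.61% with all arrays, 0.911% without control replicate 3 and 3.37% without sevoflurane replicate 3.

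**Figure D5:**
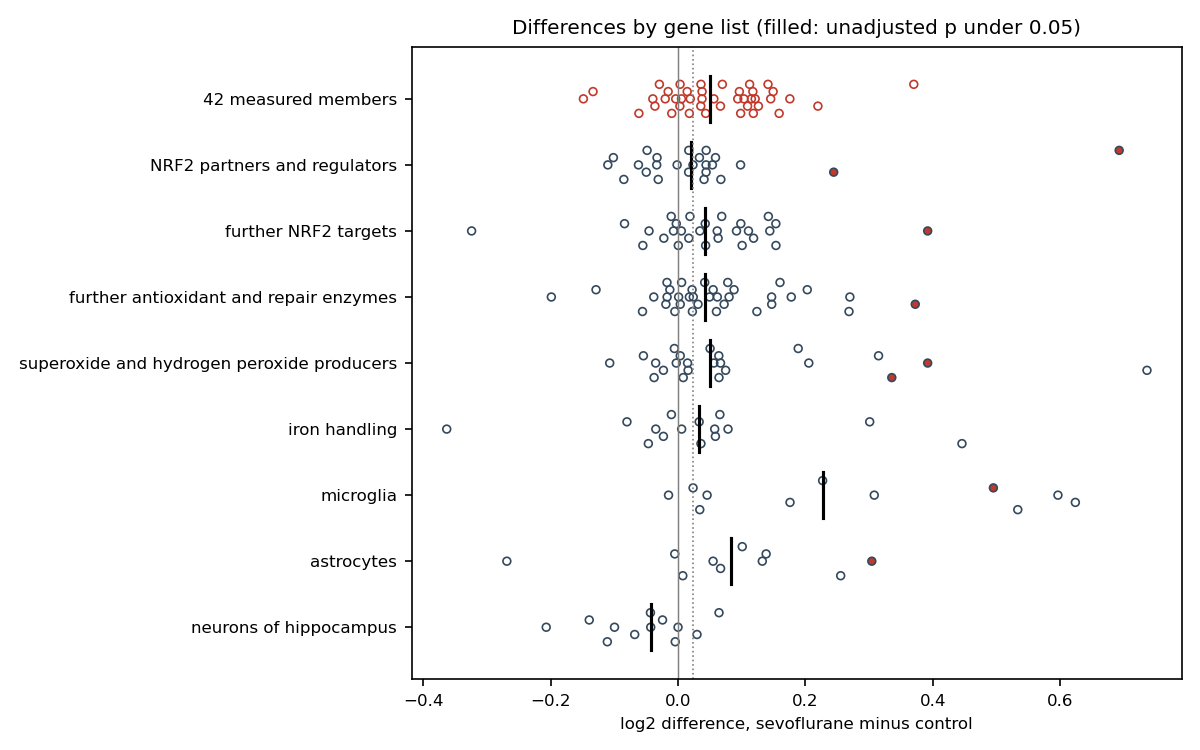
Log2 difference between sevoflurane and control for each gene (circles, filled where the unadjusted limma p is under 0.05) of the 42 measured genes, 5 related lists and 3 cell type marker lists, with the median of each list as a black bar and the median of all genes, 0.024, as a dotted line. None of the 42 genes is filled, and 5 genes of the related lists are (Aox1 stands in 2 lists), with Cdkn1a at 0.69 among the NRF2 partners.

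Marker lists of cell types and of neighbouring tissue also differed between the arrays. The 11 measured microglial markers had a median difference of 0.23, with median deviations of 0.079, 0.026 and 0.73 on the 3 sevoflurane arrays, so that sevoflurane replicate 3 carried most of it. Their mean level was 7.12 to 7.17 on the control arrays and 7.18 to 7.91 on the sevoflurane arrays, and C1qc, a complement component, passed with a difference of 0.50 (limma, unadjusted p = 0.0114). This is the array on which Cybb, Ncf1 and Rac2 were highest. Nfe2l2 was 0.25 above its control mean there and 0.28 above it on sevoflurane replicate 1, where the microglial markers deviated by 0.079. The 10 astrocyte markers had a median difference of 0.084 and a mean level of 8.90 to 9.02 in the controls and 9.01 to 9.07 after sevoflurane, and Aldoc, a glycolytic enzyme of astrocytes, passed (0.30, limma, unadjusted p = 0.0223).

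The 15 markers of thalamus and habenula, tissue that borders the hippocampus, had a median difference of 0.40 and a mean level of 6.62 to 6.70 in the controls and 6.84 to 7.51 after sevoflurane, and 7 of them passed, all higher. The 12 neuronal markers differed by a median of -0.043 and 0 passed with limma or with the methods' one-way ANOVA. The 12 endothelial markers had a median of -0.044, with Itm2a (-0.80) and Slco1c1 (-0.72) lower, and the 10 blood markers had a median of -0.13, with 2 hemoglobin genes lower. The 9 oligodendrocyte markers had a median of 0.062 with Mag higher and Opalin lower, the 10 choroid plexus markers 0.034 with Cldn2 higher, and the 12 markers of mural cells and fibroblasts 0.032 with 0 passing by either test. Without sevoflurane replicate 1 the medians of the last 2 lists turned to -0.040 (3 of 10 higher) and -0.078 (2 of 12 higher), and that of the neuronal markers was -0.0039. In all, 16 of 101 marker genes passed, 11 higher and 5 lower, against 1.32% of all genes (1.1% higher and 0.222% lower). The marker lists were chosen with earlier results of these data known, and that of thalamus and habenula holds Prkcd, a gene the study named. The part of these shifts in the differences of Nfe2l2 and its targets was not tested.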

How the data were processed

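RNA from the hippocampus of 6 rats (3 per group) was measured on Clariom D Pico arrays of 1 colour. The deposited values are log2, normalized by the authors, 1 for each probe set on an array. Affymetrix Expression Console 1.4.1, MAS5 and RMA appear in the submitters' processing notes, which do not say what each did. From 70580 probe sets, 1738 controls were removed. Of the 68842 tested, 23446 had 1 gene symbol in the platform's annotation, 505 several and 44891 none. No arrays held identical values (0 pairs), and 0 columns belonged to no sample. The number of arrays limits the precision.

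The test was limma's (version 3.58.1, R 4.3.3, lmFit followed by eBayes), two-sided, with Benjamini-Hochberg adjustment over all 68842 probe sets. Exact permutation tests used scipy 1.17.1. Background was the median of 23 antigenomic probe sets on each array, and all 42 genes lay above it on every array. On simulated data for this comparison, 200 of 68842 probe sets were changed. Limma gave 82% of those changed by 0.5 on the log2 scale and 100% of those changed by 1 an unadjusted p under 0.05. After adjustment the shares were 0% and 40%, and 3 unchanged probe sets were also under 0.05. Whether these shares hold on the measured arrays, with the level-dependent pattern of sevoflurane replicate 1, was not tested.

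The genes and lists were chosen with earlier results of these data known. Genes named with values on every array were Nfe2l2, Keap1, those with an unadjusted p under 0.05 or no overlap, the 2 with the smallest p of each role and the 3 highest and 3 lowest differences. Of each related list up to 3 genes with the smallest p and those under 0.05 were eligible to be named, the latter with values on every array, and of the marker lists fewer were named. Nqo1, Osgin1 and the partners Mafg, Bach1, Cul3 and Sqstm1 were described beyond this rule, after their values were seen. Symbols of the related lists were matched directly or by RefSeq gene ID. Alternatives were the methods' one-way ANOVA, an intensity trend with a robust prior, array weights, quantile normalization, median centring, leaving out dim probe sets, a block for the replicate number, each array left out and the mean of probe sets per gene. RefSeq promoter windows were given for 36 of the 42 genes, and no protein sequences were used here.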

Additional observations from a re-analysis of the deposited data

How the results depend on the processing

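Of the 42 genes, 24 kept the sign of their difference in all 14 alternatives, and 18 turned in at least 1 of them, 5 only with an array left out. Against 0 genes passing, the methods' one-way ANOVA passed 3, an intensity trend with a robust prior 2 (Mgst1 and Nfe2l2), array weights 6 (Cat, Ftl1, Gclm, Prdx6, Sod3 and Srxn1, against 13.9% of all probe sets), quantile normalization 1 (Nfe2l2), and leaving out 1 array 0 to 1. Nfe2l2, at 0.22, passed with the one-way ANOVA (unadjusted p = 0.0148), the trend (unadjusted p = 0.0497) and quantile normalization (unadjusted p = 0.0272). Array weights gave sevoflurane replicate 1 a weight of 0.174 and sevoflurane replicate 2 one of 3.25. They passed 12 genes of the related lists and 27 marker genes, against 5 and 16, and leaving out 1 array gave 1 to 12 and 11 to 21. The share of all probe sets that passed changed as well, to 0.911% without control replicate 3 and 3.37% without sevoflurane replicate 3. The cause of these changes was not tested.

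Same-numbered arrays deviated with correlations of -0.59, -0.29 and 0.026, and differently numbered arrays with correlations of -0.50 to 0.56. Deviations from a mean of 3 arrays constrain each other, so these values cannot decide whether same-numbered arrays have anything in common. With the replicate number as a block, 0 of the 42 genes and 3 genes of the related lists passed, and Nfe2l2 stayed at 0.22 (unadjusted p = 0.169).

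The genes that turned had differences between -0.039 (Prdx2) and 0.098 (Osgin1). Array weights gave 0.0020 for Hmox2, -0.066 for Osgin1, 0.00011 for Gclc, 0.082 for Gsr, -0.041 for Gsta3, 0.30 for Gsta4, -0.016 for Txn2, 0.0075 for Prdx2 and -0.0047 for Prdx5. Quantile normalization gave 0.0054 for Slc7a11, and median centring gave -0.0055 for Gstm1, -0.0058 for Txn1 and -0.0034 for Sod2. With 1 array left out, the differences of genes that turned ranged from -0.0034 to 0.069 for Nqo1, -0.071 to 0.033 for Hmox2, -0.12 to 0.27 for Osgin1, -0.072 to 0.066 for Gclc, -0.082 to 0.14 for Gclm, -0.17 to 0.12 for Slc7a11, -0.11 to 0.087 for Gsr, -0.16 to 0.10 for Gsta4, -0.072 to 0.084 for Gstm1, -0.10 to 0.14 for Txn1, -0.088 to 0.028 for Prdx2, -0.036 to 0.16 for Prdx3, -0.11 to 0.022 for Prdx4, -0.0073 to 0.11 for Prdx5, -0.068 to 0.14 for Me1 and -0.013 to 0.017 for Sod2.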
